A study of Mus musculus with 22 samples.

Results

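The aortas compared here came from female C57BL/6 mice without estrogen receptor beta (ERbKO) and from their wild-type littermates (WT), all ovariectomised and all carrying an estradiol (E2) pellet. They are the 8 of 22 arrays whose titles name those genotypes with estrogen: 3 ERbKO E2 arrays and 5 WT E2 arrays. The mice were 2.5 to 4.5 months old, the pellet was in place for 7 to 8 days, and 5 ug of total RNA from 1 aorta was put on each array without pooling. Removal of the ovaries takes away the main source of the animals' own estrogen, so what all 8 mice share is surgical estrogen loss followed by replacement, and the knockout is present in every cell type from conception. The placebo arrays of the same genotypes (3 ERbKO, 5 WT) and the E2 arrays of mice without estrogen receptor alpha (ERaKO, 3) are used beside them. The question the comparison addresses is which transcripts of an estrogen-replaced aorta depend on receptor beta. Arrays are named by group and by the replicate number of their title.

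Estrogen receptors alpha and beta are nuclear receptors encoded by Esr1 and Esr2. Bound to estradiol they form dimers, attach to estrogen response elements in DNA or to other transcription factors, and recruit coactivators or corepressors to nearby genes. Both have been described in endothelial and smooth muscle cells of the vessel wall.

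Values are GCRMA signals on the log2 scale, so a difference of 1 is a doubling of signal. Probe sets with values over 4 on 3 or more of all 22 arrays were tested, 20410 in number, and one was called where its limma p after Benjamini-Hochberg adjustment across them was under 0.05. Each of 10260 genes is represented by its brightest probe set, averaged over all arrays. Esr2 itself could not be used to check the labels: its only probe set lay between 2.34 and 2.72 on all 22 arrays, below the filter, at 2.36, 2.51 and 2.48 in the ERbKO E2 arrays and 2.36, 2.38, 2.47, 2.34 and 2.48 in the WT E2 arrays. Esr1, the alpha receptor, was at 8.35, 8.87 and 8.61 in the ERbKO E2 arrays and at 8.83, 8.90, 8.68, 9.17 and 8.93 in the WT E2 arrays. The groups overlapped, and the Esr1 difference was -0.29 ± 0.36 (SE, adjusted p = 0.943); a second, dimmer probe set gave 0.50 ± 0.34. Myh11, the smooth muscle myosin heavy chain that marks the aortic media, was between 13.20 and 13.62 on the 8 arrays. Correlation across probe sets between an ERbKO E2 and a WT E2 array was 0.928 to 0.987, and that between WT E2 arrays was 0.936 to 0.977. Each of the 3 ERbKO E2 arrays correlated best with a WT E2 array, replicate 2 or 3.

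The 2 groups of E2-treated aortas differed past the threshold in 1 of 20410 probe sets (0.0049%), and in 0 of 10260 genes (0%). At an unadjusted p under 0.05 there were 1172 probe sets (5.74%) and 634 genes (6.18%), of which 116 were higher (1.13%) and 518 lower (5.05%) in ERbKO. The median difference over all genes was -0.09, and centring each array on its median changed that split to 215 higher and 359 lower, so 37.5% of the genes under 0.05 were higher in place of 18.3%. Without WT E2 replicate 3 the count of genes under 0.05 was 1062, and it was 364 without WT E2 replicate 5, 291 without ERbKO E2 replicate 2 and 338 without ERbKO E2 replicate 3. The arrays of the groups did not overlap for 585 genes (5.7%), 138 of them higher (1.35%) and 447 lower (4.36%) in ERbKO. An absolute difference under 0.5 was found for 88.1% of genes, and one over 1 for 153 genes. The authors' deposited table lists 1723 of 45101 probe sets under an unadjusted 0.05 for the same comparison.

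The single called probe set, 1457231_at, carries no gene name in the array annotation used here. Its signal was 3.68, 4.02 and 4.24 in the ERbKO E2 arrays and 6.44, 6.12, 6.77, 7.48 and 6.38 in the WT E2 arrays. Every ERbKO array was lower than every WT array, with a difference of -2.66 ± 0.38 (SE), 6.32-fold in signal, at an adjusted limma p of 0.0256. In placebo mice, which share no array with the E2 comparison, the same probe set was 3.44, 4.01 and 4.20 in ERbKO and 5.87 to 7.19 in WT, a difference of -2.54 ± 0.38 (adjusted p = 0.0485). It was between 6.14 and 7.55 in the ERaKO E2 arrays. The call depended on the arrays used: it was kept without WT E2 replicate 2 and lost without any other of the 8 arrays, where the adjusted p reached at most 0.139. Leaving out ERbKO E2 replicate 1 gave 8 called probe sets, and fitting array weights gave 239 (54 higher, 185 lower), with ERbKO E2 replicate 3 weighted highest of the 8 at 3.03 and WT E2 replicate 5 lowest at 0.40.

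Among named genes the smallest p belonged to Sntg2, which encodes gamma-2-syntrophin, an adaptor of the dystrophin complex. Sntg2 was at 5.07, 4.30 and 4.65 in the ERbKO E2 arrays and at 7.51, 6.58, 6.10, 7.81 and 7.01 in the WT E2 arrays. No ERbKO value reached a WT value, and the difference was -2.33 ± 0.38 with an adjusted limma p of 0.073, outside the threshold. It came under the threshold when WT E2 replicate 3 (0.0348) or ERbKO E2 replicate 1 (0.0489) was left out, and went up to 0.509 without ERbKO E2 replicate 2. In ERaKO E2 aortas Sntg2 averaged 7.12 ± 0.08 (SD, n = 3), and the ERbKO E2 minus ERaKO E2 difference of -2.45 was called (adjusted p = 0.0139). With placebo the groups were also apart, 4.71, 3.92 and 5.20 in ERbKO against 5.85 to 7.57 in WT.

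Ap4s1, the small subunit of the AP-4 trafficking adaptor, had the next smallest p. It was at 7.74, 7.59 and 8.04 in the ERbKO E2 arrays and at 8.62, 8.30, 8.25, 8.69 and 8.75 in the WT E2 arrays. The groups did not overlap, and the difference was -0.73 ± 0.15 (adjusted p = 0.291). Syne2, which encodes nesprin-2 of the nuclear envelope, was at 6.97, 6.06 and 6.49 against 7.26, 7.41, 7.36, 7.46 and 7.36, again without overlap (difference -0.86 ± 0.21, adjusted p = 0.554). All 3 of these genes lie on mouse chromosome 12 in the RefSeq annotation of assembly GRCm38.p6, as does Esr2.

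For these 3 genes the 250 bases before the annotated start are shown, because their probe sets lead the named genes of the targeted chromosome. Sequences are from RefSeq, build GRCm38.p6, 5′ to 3′ on the gene's strand, at chr12:30373377-30373626 (minus strand) for Sntg2, chr12:51690716-51690965 (plus strand) for Ap4s1 and chr12:75818068-75818317 (plus strand) for Syne2. Capitals mark GGTCA or its reverse complement TGACC, the arm of the palindromic estrogen response element.
Sntg2: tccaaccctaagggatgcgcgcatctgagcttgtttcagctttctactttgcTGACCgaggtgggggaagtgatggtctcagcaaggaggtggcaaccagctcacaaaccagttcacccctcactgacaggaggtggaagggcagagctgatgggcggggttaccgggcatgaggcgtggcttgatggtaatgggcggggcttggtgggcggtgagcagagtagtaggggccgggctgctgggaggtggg
Ap4s1: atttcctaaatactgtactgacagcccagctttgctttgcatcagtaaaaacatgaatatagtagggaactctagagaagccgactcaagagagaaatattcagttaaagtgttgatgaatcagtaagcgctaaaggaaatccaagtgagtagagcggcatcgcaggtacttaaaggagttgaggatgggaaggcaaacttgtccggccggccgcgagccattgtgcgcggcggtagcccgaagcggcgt
Syne2: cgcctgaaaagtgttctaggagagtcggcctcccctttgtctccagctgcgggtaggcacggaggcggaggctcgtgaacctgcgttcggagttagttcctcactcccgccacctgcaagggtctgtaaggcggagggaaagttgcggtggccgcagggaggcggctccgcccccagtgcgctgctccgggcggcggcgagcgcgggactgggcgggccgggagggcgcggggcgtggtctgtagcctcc
The arm occurred 1 time in the Sntg2 window, 198 bases before the start, and in neither of the others; 35.2% of 32851 RefSeq windows of this length hold it on one strand or the other. The full element GGTCANNNTGACC, read on both strands, was in 0 of the 3 windows and in 21 of 32851 windows (0.064%). Of the 20 leading genes described next, 17 had a window, 8 of them with the arm and 0 with the full element. A gene counted here if any of its windows held the letters. By that count 38.36% of 27025 genes had the arm and 0.067% the full element.

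**Figure D1:**
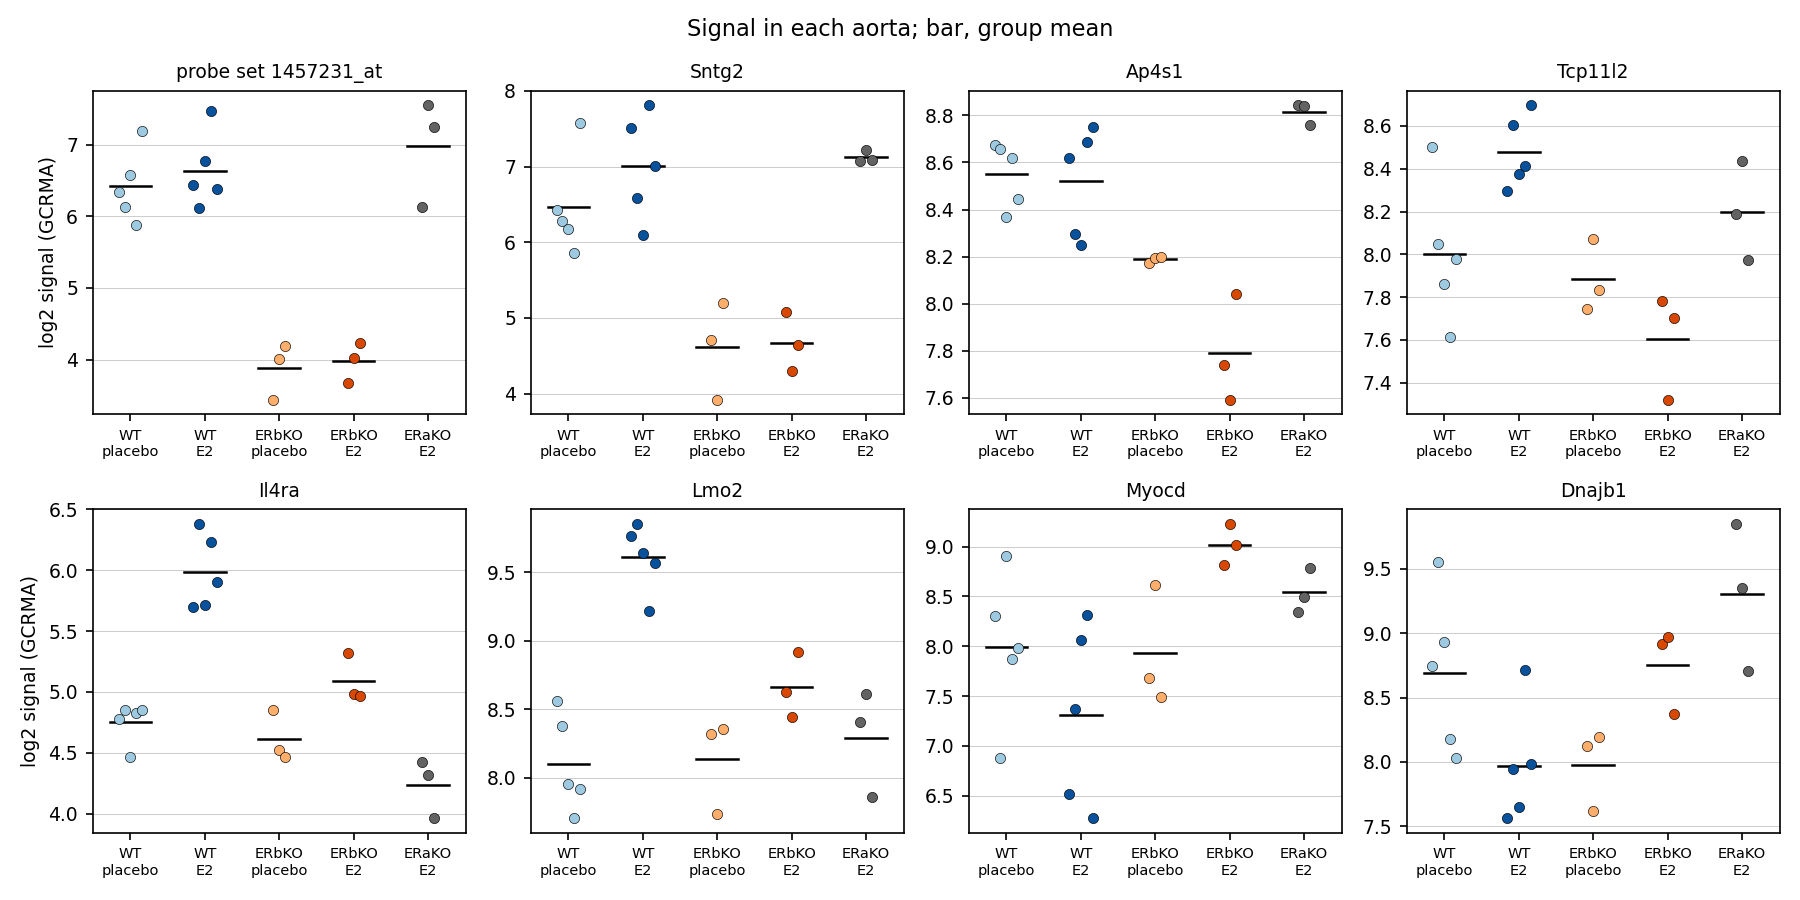
Log2 signal (y axis, own scale in each panel) of the called probe set and 7 genes in each aorta, by genotype and pellet; points are arrays and bars are group means. In the first 3 panels both ERbKO groups sit below both WT groups, while Il4ra and Lmo2 stand highest in the WT E2 group and Myocd highest in the ERbKO E2 group.

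The other lower genes with the smallest p are given as values, since none passed the adjusted threshold. Tcp11l2 was at 7.78, 7.32 and 7.70 in the ERbKO E2 arrays and at 8.30, 8.60, 8.37, 8.41 and 8.70 in the WT E2 arrays (difference -0.87 ± 0.19, adjusted p = 0.342). Prrg3, a transmembrane gamma-carboxyglutamate protein, was at 5.91, 5.77 and 5.76 against 6.38 to 6.89 (difference -0.79 ± 0.18). Neither gene overlapped between the groups. Calml4, a calmodulin-like protein, had a difference of -1.82 ± 0.45, with ERbKO E2 arrays at 5.59, 5.70 and 5.21 and WT E2 arrays from 6.46 to 8.02. Zcchc24 (-0.81 ± 0.19) and Rpap3, a co-chaperone of HSP90 that helps assemble RNA polymerase (-0.89 ± 0.21), were also without overlap. The second tested probe set of Zcchc24 gave -0.02 ± 0.40, with overlap.

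Il4ra and Lmo2 belonged to the genes that estradiol raised in WT aortas. Il4ra, the alpha chain of the interleukin-4 receptor, was at 5.32, 4.98 and 4.96 in the ERbKO E2 arrays and at 5.70, 6.38, 5.71, 6.23 and 5.90 in the WT E2 arrays. The difference was -0.90 ± 0.21 without overlap (adjusted p = 0.541), and its second tested probe set gave -0.65 ± 0.17. Lmo2, a LIM-domain adaptor of transcription complexes in blood and endothelial cells, was at 8.62, 8.44 and 8.91 against 9.76, 9.85, 9.64, 9.22 and 9.57, also without overlap (difference -0.95 ± 0.23, adjusted p = 0.649). With placebo the genotype differences were -0.14 for Il4ra and 0.03 for Lmo2. Side by side, and sharing the WT E2 arrays, the ERaKO E2 minus WT E2 differences were -1.75 for Il4ra (adjusted p = 1.95e-04) and -1.32 for Lmo2 (adjusted p = 0.0131); that comparison called 49 probe sets (0.24%).

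On the higher side the smallest p was that of Myocd, the coactivator of serum response factor that drives smooth muscle genes. Myocd was at 8.82, 9.23 and 9.01 in the ERbKO E2 arrays and at 6.52, 7.37, 8.06, 8.31 and 6.28 in the WT E2 arrays. The ERbKO arrays lay close together and above all 5 WT arrays, which were spread wider. The difference was 1.71 ± 0.43 (adjusted p = 0.663). The ERaKO E2 arrays, at 8.34, 8.49 and 8.79, were also above all 5 WT E2 arrays. Of 29 tested genes of the smooth muscle list, Myocd among them, 1 was higher and 0 lower at an unadjusted 0.05 (1.13% and 5.05% over all genes). The list's median difference was 0.03. Myh11 differed by 0.04 ± 0.23 (-0.09 with array weights).

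The remaining higher genes had adjusted p-values of 0.663 to 0.834. Sost, which encodes the Wnt antagonist sclerostin, was at 11.04, 10.40 and 11.07 in the ERbKO E2 arrays and at 9.29, 10.27, 10.02, 9.77 and 8.25 in the WT E2 arrays (difference 1.32 ± 0.40). Npy1r, the Y1 receptor through which neuropeptide Y constricts vessels, was at 8.00, 7.83 and 7.92 against 6.93, 7.16, 6.82, 7.49 and 6.74 (difference 0.89 ± 0.28). Both were without overlap. Fgfr2, a fibroblast growth factor receptor, was at 7.32, 7.04 and 6.63 against 5.92 to 6.54 (difference 0.68 ± 0.22), and Thoc2, a subunit of the mRNA export complex THO, differed by 1.12 ± 0.35, while its other tested probe sets gave 0.24 and -0.09. Gm13306 had the highest difference of the 10, 2.36 ± 0.73, and Hrct1 was at 4.55, 4.78 and 4.35 against 3.50 to 4.27, close to the filter. Tnfrsf12a, the receptor of TWEAK (1.24 ± 0.35), the nuclear import receptor Ipo7 (0.72 ± 0.23) and the kinase Stk32a (1.17 ± 0.38) overlapped between the groups, Stk32a with 1 ERbKO E2 array at 3.33, at the level of the WT arrays. Without that array, replicate 1, the Stk32a difference was 1.87 and was called by limma (adjusted p = 0.0417), and it ran from 0.74 to 1.29 without any other single array.

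The genotypes were also compared in placebo-treated mice, on other arrays. Same-numbered E2 and placebo arrays of a genotype deviated together (r of 0.25 to 0.66), so this comparison is not an independent repeat. There 1 probe set was called (0.0049%) and 310 genes had an unadjusted p under 0.05 (3.02%). Of the 10 lower genes, 9 had the same sign with placebo and 4 an unadjusted p under 0.05; of the 10 higher genes the numbers were 7 and 2. Over all genes 63.6% had the same sign. The genes that passed 0.05 in both were Sntg2 (-1.85 with placebo), Ap4s1 (-0.36), Prrg3 (-0.56), Syne2 (-0.46), Sost (0.85) and Stk32a (0.80).

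**Figure D2:**
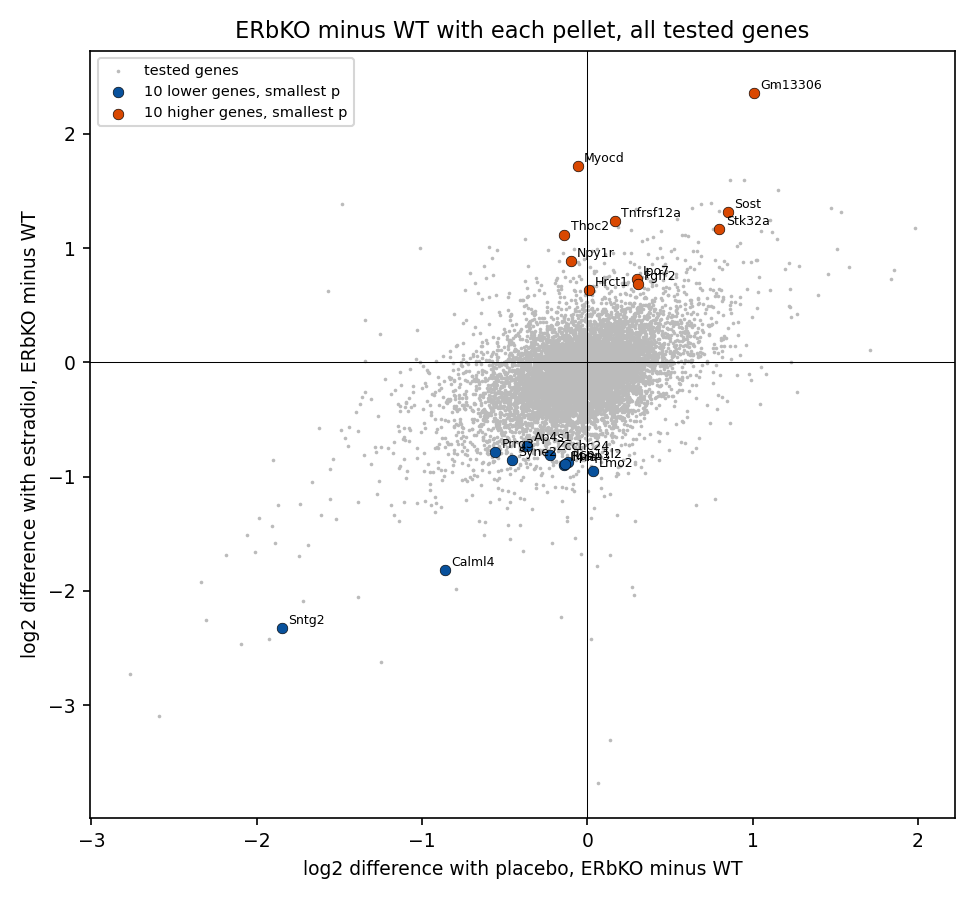
Log2 difference ERbKO minus WT with E2 (y axis) against that with placebo (x axis) for the 10260 tested genes; coloured points are the 10 lower and 10 higher genes with the smallest p with E2. Sntg2 lies far out on both axes (-2.33 and -1.85), whereas Lmo2 and Myocd (0.03 and -0.06 with placebo) lie near 0 on the placebo axis.

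Whether the genotype difference itself changed with the pellet was tested as an interaction. No probe set was called (0%), and 134 genes were under an unadjusted 0.05 (1.31%). Replicate numbers paired the E2 and placebo arrays within a genotype, and with genotype and number as a fixed block the count of called probe sets was again 0, while 999 probe sets in place of 261 (1.28%) were under an unadjusted 0.05. The smallest p-values were those of Slc12a2, the sodium-potassium-chloride cotransporter NKCC1 (interaction 1.06), and Dnajb1, a co-chaperone of the HSP70 proteins (interaction 1.49), and the adjusted limma p of both was 0.99993. Dnajb1 was at 8.91, 8.97 and 8.38 in the ERbKO E2 arrays and at 7.56, 7.95, 7.65, 8.71 and 7.99 in the WT E2 arrays, with overlap at WT replicate 4. With placebo the order was the other way round, 8.12, 7.62 and 8.19 in ERbKO against 8.03 to 9.55 in WT, so the genotype difference was 0.78 with E2 and -0.71 with placebo.

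The other genes with a small interaction p had a negative term. Myrip, an adaptor between Rab27 and myosins, was at 6.26, 6.13 and 5.96 in the ERbKO E2 arrays and at 6.76 to 7.28 in the WT E2 arrays, and its genotype difference was -0.89 with E2 and 0.29 with placebo. Sdc1, the heparan sulfate proteoglycan syndecan-1, was at 7.30, 7.38 and 7.48 against 7.96 to 8.69, with differences of -0.80 and 0.28. Both were without overlap with E2. Tubgcp2, a gamma-tubulin complex protein (-0.40 and 0.23), Slc35d2, a nucleotide sugar transporter (-0.59 and 0.22), Dcxr, a carbonyl reductase of xylulose (-0.54 and 0.54), Tmem117 (-0.20 and 0.66), Lmo2 (-0.95 and 0.03) and Tcp11l2 (-0.87 and -0.12) complete the 10. None of the 10 was called.

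Endothelial markers had values below those of WT in the ERbKO E2 arrays, and none was called. Of 26 tested endothelial markers 23 had a negative difference, 8 were lower and 0 higher at an unadjusted 0.05, where 5.05% of all genes were lower and 1.13% higher. The list's median was -0.47 where it was -0.09 over all genes, and 58.3% of all tested probe sets had a negative difference. The mean of the list was 6.81 to 7.25 in the ERbKO E2 arrays and 7.29 to 7.71 in the WT E2 arrays, so the groups did not overlap. Tek, the angiopoietin receptor TIE2, was at 7.35, 7.19 and 7.60 against 8.58, 8.86, 8.16, 7.90 and 8.89 (difference -1.10 ± 0.30, adjusted p = 0.761). Esam, an endothelial adhesion molecule, was at 8.18, 7.92 and 8.09 against 8.49, 8.78, 8.40, 8.56 and 8.60 (difference -0.50 ± 0.16). Ptprb, the vascular endothelial protein tyrosine phosphatase, was at 8.62, 8.88 and 9.19 against 9.22 to 9.84 (difference -0.65 ± 0.22), while its other tested probe set gave 0.16 ± 0.24. With these probe sets the 3 genes did not overlap between the groups, whereas Cd93, a C-type lectin-like receptor of endothelium, did, with ERbKO E2 arrays up to 7.99 and WT E2 arrays from 7.97 (difference -0.94 ± 0.32).

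Nos3, the endothelial nitric oxide synthase, was at 7.16, 6.60 and 6.79 in the ERbKO E2 arrays and at 6.54 to 8.04 in the WT E2 arrays (difference -0.36 ± 0.27, adjusted p = 0.883). Vwf, the von Willebrand factor, was at 10.16, 10.35 and 10.38 against 10.18 to 11.05 (difference -0.44 ± 0.20, adjusted p = 0.860). Both overlapped. With placebo the endothelial median was -0.11, with list means of 6.88 to 7.15 in ERbKO and 6.91 to 7.47 in WT. There 3 of the 26 markers were lower and 0 higher at an unadjusted 0.05, where 186 of 10260 genes were lower and 124 higher. The median of ERaKO E2 minus WT E2, which shares the WT E2 arrays, was -0.32 for the list and 0.06 over all genes. An aorta is a mixture of cells, and fewer cells of a type and less RNA per cell cannot be told apart in these arrays.

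**Figure D3:**
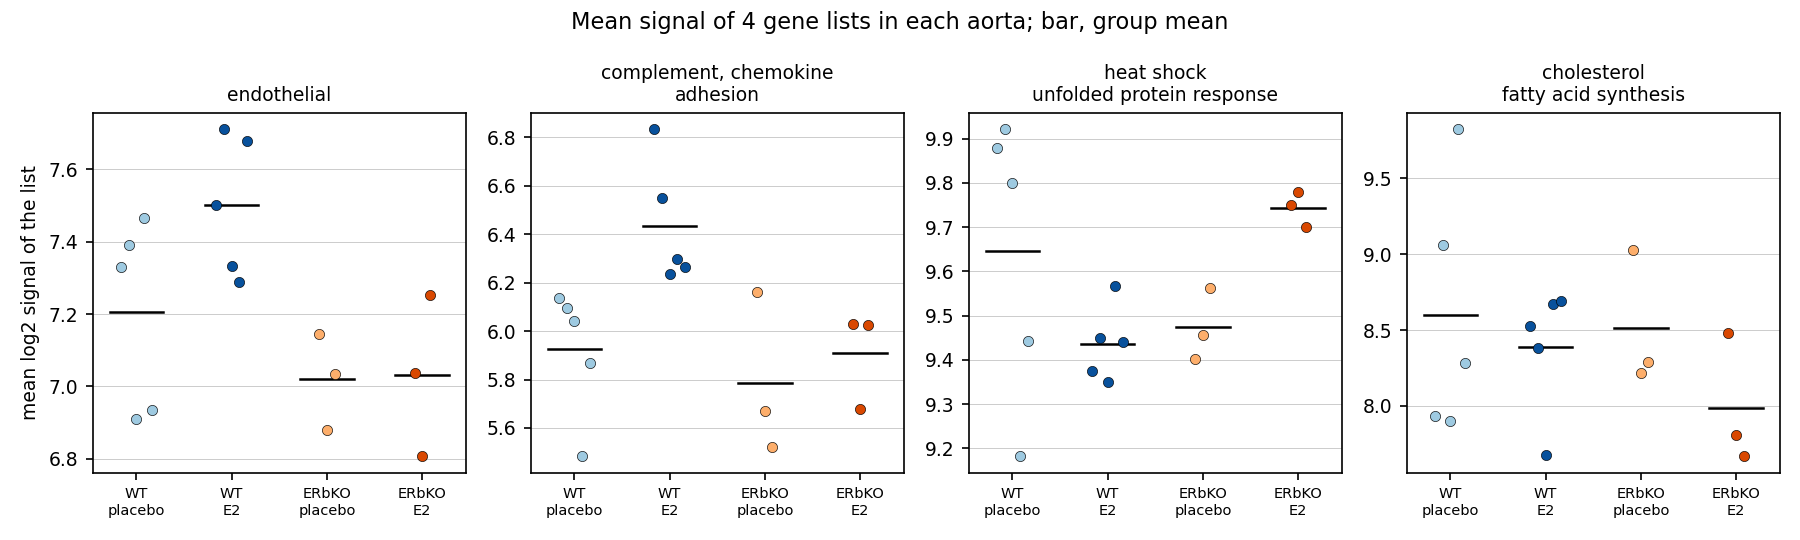
Mean log2 signal (y axis, own scale in each panel) of the tested members of 4 gene lists in each aorta, by genotype and pellet; points are arrays and bars are group means. The ERbKO E2 arrays lie below the WT E2 arrays for endothelial genes (6.81 to 7.25 against 7.29 to 7.71) and for complement, chemokine and adhesion genes, above them for heat shock genes, and among them for cholesterol and fatty acid synthesis.

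Genes of complement, chemokines and adhesion also had values below those of WT. Of 17 tested members 16 had a negative difference, and 4 were lower and 0 higher at an unadjusted 0.05 (5.05% and 1.13% over all genes). The list had a median of -0.53 and list means of 5.68 to 6.03 in the ERbKO E2 arrays against 6.23 to 6.83 in the WT E2 arrays. Icam1, the adhesion molecule that holds leukocytes to endothelium, was at 6.42, 5.48 and 5.85 against 7.08, 7.18, 6.70, 7.19 and 6.57, without overlap (difference -1.03 ± 0.32, adjusted p = 0.809). C1s1, a complement protease (-0.58 ± 0.25), Cx3cl1, the membrane-bound chemokine fractalkine (-0.63 ± 0.28), and Serpina3n, an acute-phase protease inhibitor (-0.78 ± 0.36), overlapped between the groups. The list and its 4 lower members thus include an acute-phase gene, and Serpina3n lies on chromosome 12, as does Esr2. With placebo the list's median was -0.13. For ERaKO E2 minus WT E2, which shares the WT E2 arrays, it was -0.32. Macrophage and myeloid markers, given because they share the tissue, had a median of -0.26 with 0 of 16 under 0.05 (6.18% over all genes). Their list means were 6.15 to 7.21 in ERbKO against 6.38 to 7.54 in WT. The part of these markers in the values above was not tested.

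Heat shock genes had values in the opposite direction. Of 24 tested members of the heat shock and unfolded protein response list 19 had a positive difference, and 5 were higher and 0 lower at an unadjusted 0.05 (1.13% and 5.05% over all genes). The median was 0.23, and that of ERaKO E2 minus WT E2, which shares the WT E2 arrays, was 0.30. List means were 9.70 to 9.78 in the ERbKO E2 arrays and 9.35 to 9.57 in the WT E2 arrays, without overlap. Hspa1b, the stress-inducible HSP70, was at 11.15, 11.50 and 11.41 against 10.26, 10.40, 10.44, 10.32 and 10.29 (difference 1.01 ± 0.48, adjusted p = 0.860). Hspb1, the small heat shock protein HSP27 in human nomenclature, was at 10.94, 11.51 and 11.24 against 9.94 to 10.93, and Dnajb4 at 11.31, 11.65 and 11.39 against 10.05 to 11.30. All 3 were without overlap, Hspb1 and Dnajb4 narrowly. With placebo the list's median was -0.12, and WT placebo means of 9.18 to 9.92 spread wider than the difference between the E2 groups; 4 members had an unadjusted interaction p under 0.05, all positive, where 1.31% of all genes were under it.

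Other lists held few genes under an unadjusted 0.05. Over all genes 1.13% were higher and 5.05% lower at that level, and 58.3% of all tested probe sets had a negative difference. Cholesterol and fatty acid synthesis had a median of -0.41, with 22 of 26 members negative but 1 lower at 0.05, Dhcr7, the last enzyme of cholesterol synthesis, at 4.90, 4.29 and 3.97 against 4.55 to 6.89. List means of 7.67 to 8.48 and 7.67 to 8.69 overlapped. In the Wnt, BMP and TGF-beta list 3 of 27 members were higher (Sost, Id1 and Bmp2) and 1 lower (Tgfbr2), and the median was -0.02 (0.06 after median centring). Id1, an inhibitor of helix-loop-helix factors that BMP signals raise, was at 7.98, 8.08 and 9.09 against 6.00 to 8.17, with overlap. The estrogen-responsive list had 1 higher member, the kinase Sgk1 (0.73 ± 0.34), and 1 lower, the cytochrome P450 Cyp1b1 (-0.73 ± 0.35), of 16, with a median of -0.09. Both were without overlap, and the second probe set of Cyp1b1 gave -0.22 ± 0.34.

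Markers of fat, fibroblasts and striated muscle, which can be part of the sample, are given as values. Medians were -0.08 for 16 brown adipocyte genes, 0.04 for 18 white adipocyte genes, -0.03 for 67 electron transport genes (0.05 after centring on array medians) and -0.13 for 18 adventitial fibroblast genes. Brown adipocyte list means ran from 7.69 to 9.33 in the ERbKO E2 arrays and from 7.88 to 9.17 in the WT E2 arrays, and Ucp1, the uncoupling protein of brown fat, from 11.74 to 13.19 and from 11.55 to 13.11. Without ERbKO E2 replicate 2 the medians were 0.41 for brown adipocyte, 0.28 for white adipocyte and 0.17 for electron transport genes, and without ERbKO E2 replicate 1 they were -0.46, -0.31 and -0.26. Adipoq, which encodes adiponectin, differed by 0.01 ± 0.42, a difference whose sign turned with the array left out, as did that of Ucp1 (0.08 ± 0.45). Pdgfra, a receptor of adventitial fibroblasts, was at 9.76, 9.53 and 9.83 against 10.04 to 10.47 (difference -0.66 ± 0.23), and its dimmer probe sets gave -0.22 and 0.01. Of 11 tested striated muscle genes 10 were negative with a median of -0.36, and Myh6, the cardiac alpha myosin heavy chain, was at 8.36, 6.58 and 5.71 against 7.77 to 10.52, with overlap (difference -2.42 ± 0.996, adjusted p = 0.859, and -0.10 ± 0.84 in a dimmer probe set). Acta1, the skeletal actin, was at 4.02 to 5.25 on all 8 arrays. Sod3, the extracellular superoxide dismutase, differed by -0.02 ± 0.22 (0.06 after median centring, and 0.42 ± 0.35 in a dimmer probe set). Of 38 tested antioxidant genes 0 were under an unadjusted 0.05 (6.18% over all genes).

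Estradiol-responsive genes were read separately in WT and ERbKO, whose responses share no array. The WT response rests on 5 arrays per pellet and the ERbKO response on 3, so a call is harder to reach in ERbKO. Replicate numbers were not used as pairs in this fit. In WT the E2 minus placebo comparison called 79 probe sets (0.387%) and 53 genes (0.517%). All 53 had the same sign in ERbKO, 43 of them at an unadjusted p under 0.05, where 2.6% of all genes were, and 10 called, in a comparison that called 20 probe sets (0.098%) and 0.117% of genes. For the 47 genes that rose in WT the median response was 1.505 in WT and 1.25 in ERbKO. The genes were chosen by their WT response, which favours a high WT median, so the 2 medians are a description. Mmd2, a membrane protein of the progestin and adipoQ receptor family, was at 8.55, 7.80 and 9.28 in the ERbKO E2 arrays and at 8.41, 8.31, 8.00, 8.56 and 8.41 in the WT E2 arrays, and its response was 4.41 in ERbKO and 4.44 in WT. Ano4, of the anoctamin family of ion channels and scramblases, was at 6.44, 5.49 and 6.04 against 6.23 to 7.55, with overlap (difference -0.81 ± 0.22, adjusted p = 0.789). Pgr, the progesterone receptor, differed by -0.26 ± 0.37, with the groups overlapping.

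Between the E2-treated genotypes, 18 of these 53 genes had an unadjusted p under 0.05 (6.18% over all genes), 3 of them higher in ERbKO (Hrct1, Sost and Fgfr2) and 15 lower, and 0 were called. The WT E2 arrays chose the 53 genes and also enter this comparison, so the count is a description. The interaction called 0 of the 53, and 10 were under an unadjusted 0.05 (1.31% over all genes). The WT arrays that chose the 53 genes also enter the interaction, so that count too is a description. For comparison, ERbKO E2 differed from ERaKO E2 in 47 probe sets (0.23%), among them Mmd2 (5.40, adjusted p = 8.99e-09), Ano4 (3.47, adjusted p = 1.22e-07) and Hrct1 (1.495, adjusted p = 2.22e-04), while the difference of Il4ra was 0.85 (adjusted p = 0.191) and that of Lmo2 0.37 (adjusted p = 0.616).

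Genes of the chromosome that carries Esr2 were examined because a targeted gene is inherited together with the chromosome around it. Of 361 tested genes on chromosome 12, 23 were under an unadjusted 0.05 (6.37%), all lower in this scaling (15 lower and 4 higher after centring each array on its median), against 6.17% elsewhere. The count was 43 without WT E2 replicate 3 and 35 without ERbKO E2 replicate 1. Over all 10260 genes it rose too, from 634 to 1062 and 904 in those settings. At an unadjusted 0.001 there were 3 (0.831%), Sntg2, Ap4s1 and Syne2, against 9 elsewhere (0.0909%). Genes whose arrays did not overlap in the same direction with both pellets numbered 3 on chromosome 12 (0.831%), Colec11, Sntg2 and Ap4s1, against 12 elsewhere (0.121%), where 2.63% of all genes did not overlap with placebo. Colec11, a collectin of the lectin complement pathway, differed by -1.68 with E2 and -2.19 with placebo. In the GRCm38.p6 annotation these 4 genes lie before Esr2. The gap between gene and Esr2 is 0.00949 Mb for Syne2, 24.4 Mb for Ap4s1, 45.7 Mb for Sntg2 and 47.5 Mb for Colec11.

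Of the 5 nearest tested genes on each side, Syne2 and Snapc1, a subunit of the snRNA activating complex (-0.50 ± 0.21, 2.13 Mb), were under an unadjusted 0.05. The others differed, in the brightest probe set of each gene, by -0.52 for Sgpp1, -0.14 for Ppp2r5e, 0.29 for Rhoj, -0.09 for Mthfd1, -0.32 for Akap5, 0.07 for Zbtb25, -0.13 for Zbtb1 and 0.61 for Hspa2. Dimmer probe sets were under an unadjusted 0.05 for Mthfd1 (-0.49 ± 0.21) and Ppp2r5e (0.67 ± 0.30). Other probe sets of chromosome 12 genes are added after their values were seen, since 4 of the 10 probe sets with the smallest p over the whole array lie there and 3 of the 10 carry no gene name. For Adi1, an enzyme of methionine salvage, probe set 1438758_at averaged 3.46 in ERbKO E2 and 6.44 in WT E2 (difference -2.98 ± 0.55, adjusted p = 0.186), while the brighter probe set of the same gene gave 0.28 ± 0.22. For Daam1, a formin of Wnt signalling, 1431035_at differed by 1.61 ± 0.31 and the brightest probe set by 0.01. The probe sets given for each of these genes disagreed, and other tested probe sets of the genes are not described here.

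**Figure D4:**
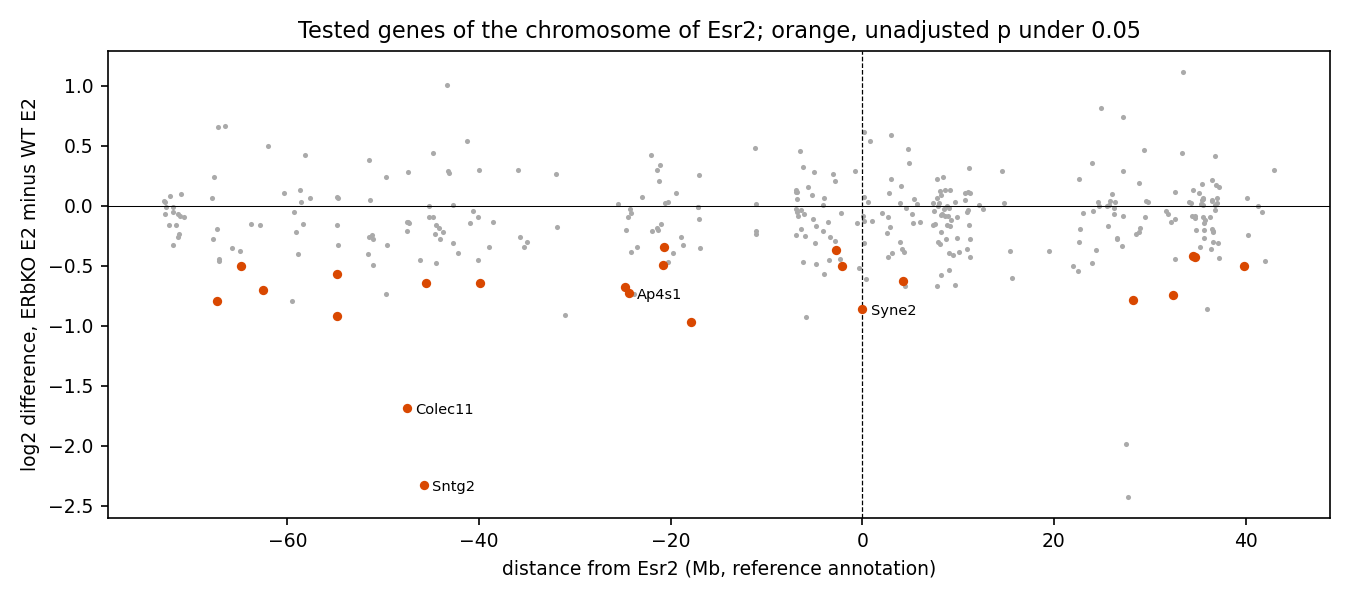
Log2 difference ERbKO E2 minus WT E2 (y axis) of the 361 tested chromosome 12 genes by distance from Esr2 in Mb (x axis, GRCm38.p6 annotation, dashed line at Esr2); orange points have an unadjusted p under 0.05. All 23 orange points lie below 0 in this scaling (4 of 19 lie above after centring on array medians), from 67.3 Mb before to 39.9 Mb after Esr2, with Sntg2 lowest of them at -2.33.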

How the data were processed

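Aortic RNA of 22 mice was labelled with biotin and hybridised to Affymetrix whole-genome mouse arrays, 1 aorta per array. The deposited values are log2 signals that the authors made with GCRMA, per the submitters' processing notes; this method models background from probe sequence and normalises the arrays together, which can move dim probe sets. The authors' deposited limma table gives log2 fold changes and p-values, and a refit of all 45101 probe sets matched those p-values to within 4.74e-08, so they are unadjusted. GCRMA's version, the probe annotation build and other settings are not given in the sources used here.

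Limma 3.58.1 in R 4.3.3 was fitted to the 22 arrays as 6 group means (lmFit, eBayes), two-sided, with Benjamini-Hochberg adjustment over 20410 probe sets, after removal of 64 controls and of probe sets not over 4 on at least 3 arrays. The code was tested on simulated data. Of all probe sets 34958 carry 1 gene symbol, 932 several and 9211 none; symbols were updated through RefSeq, where 10232 of 10260 genes matched. Errors are SE of the fit unless given as SD. The number of arrays limits precision. Replicates are separate mice per the labels.

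Genes are named by a rule: in each direction the 10 genes with the smallest p where under 10 were called, the 10 with the smallest interaction p, the 4 members with the smallest p of each list, genes near Esr2, and 12 fixed genes. The comparison and the lists were chosen with earlier results of these data known. Lists are described by counts and medians with no set test. Deviations of same-numbered ERbKO and WT arrays correlated at r = 0.11, -0.34 and 0.23 with E2 and -0.04, -0.33 and 0.36 with placebo. Only for replicate 3 was the same number the best match, with both pellets, so numbers were not used as pairs of genotypes in the main fit. Within a genotype each E2 array deviated most like the placebo array of its number (r of 0.25 to 0.66). Alternatives covered normalisation, filter, weights, blocks, thresholds and leaving out each array.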

Additional observations from a re-analysis of the deposited data

Results flagged for a closer look

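A WT E2 array far from the other 4 was found for 3 of the 70 genes and probe sets examined and for none of 14 gene lists; chance flags about 1 in 20 such groups. Sgpp1, a sphingosine phosphatase gene, was at 8.47 in WT E2 replicate 1 against 7.97 to 8.07 in the others. Mthfd1, of folate metabolism, was at 7.64 in the same array against 7.01 to 7.12. Pdgfra was at 10.04 in WT E2 replicate 3 against 10.41 to 10.47. No interaction of genotype and pellet passed the adjusted threshold.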

How the results depend on the processing

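The count of called probe sets in ERbKO E2 minus WT E2 (1) was 0 with only the 8 arrays, with no filter, at an adjusted 0.01, with 1 probe set per gene and with the replicate block of number 1 to 5, 2 with a filter of log2 over 6 or at an adjusted 0.1, 239 with array weights, and 0 to 8 when each array was left out. With placebo it (1) was 0 with no filter, robust eBayes, an adjusted 0.01, 1 probe set per gene or the replicate block, 2 with the filter of 6, an adjusted 0.1 or the random replicate block within genotype, 5 with array weights, and 0 to 2 with an array left out. The interaction count was 0 under every alternative run, the fixed replicate block within genotype, added after seeing the data, included. The chromosome 12 count (23 of 361 genes) was 88 with array weights, where the count over all 10260 genes was 2104 in place of 634. It was 45 of 655 over all tested probe sets of the chromosome (also added), where 5.74% of all tested probe sets were under 0.05. With an array left out it was 17 to 43, and the count over all genes was 291 to 1062. List medians that moved were striated muscle (-1.23 with the filter of 6), estrogen-responsive genes (0.050 with array weights, -0.12 to 0.042 with an array left out), heat shock genes (0.14 with the replicate block) and brown adipocyte genes (-0.46 to 0.41 with an array left out); the other list medians stayed within 1 SD of the WT E2 list means. Of 1527 values of 70 genes and probe sets under alternatives, 21 turned sign. These were Zbtb25 (-0.034 with weights), Sod3 (0.060 with median centring), Adipoq (-0.00267 with weights) and Myh11 (-0.088 with weights, -0.085 with the replicate block), and, with an array left out, Mthfd1 (-0.13 to 0.028), Zbtb25 (-0.026 to 0.12), Zbtb1 (-0.33 to 0.11), Sod3 (-0.16 to 0.17), Ucp1 (-0.23 to 0.50), Adipoq (-0.30 to 0.46), Myh11 (-0.052 to 0.16) and Mmd2 (-0.16 to 0.58). A stricter threshold lowers a count by construction. Leaving out an array raised some counts and lowered others, and for that and the other settings the cause was not tested. Probe sets near the filter, such as Hrct1, are limited by signal over background.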
